A study of Mus musculus with 4 samples.

Results

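The 10 neutrophil granule genes described here are S100a8, S100a9, Lcn2, Ngp, Camp, Ltf, Mmp8, Mmp9, Retnlg and Csf3r, and they were taken by symbol from a lung RNA-seq table that lists 41079 genes. All 10 were found. Whole-lung RNA was sequenced as 4 libraries, 1 per group of mice: untreated or OVA-induced, each WT or Rab44-KO. The groups are called normal WT, normal KO, OVA WT and OVA KO below. The mice were female littermates aged 8 to 14 weeks, and the Rab44-KO line was made by CRISPR/Cas9 editing of Rab44, a large Rab GTPase of membrane traffic, on a C57BL/6 background. OVA-induced mice of both genotypes were sensitised intraperitoneally with 100 μg of ovalbumin (OVA) and aluminium hydroxide on days 0, 7 and 14. The intranasal challenge was 100 μg of OVA in 50 μL on each of days 17 to 20. Lungs were taken on day 21. The labels describe normal mice as untreated, although the protocol text that they carry also names a PBS challenge. How many mice each library stands for is not given in the sources used here.

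Neutrophils carry their proteins in granules that are filled one kind after another as the cell matures in bone marrow. Azurophil granules come early and hold myeloperoxidase and serine proteases, specific granules hold lactoferrin, lipocalin 2, cathelicidin and collagenase, and gelatinase granules come late. Calprotectin, the S100A8 and S100A9 pair, is not a granule protein in the strict sense but fills the cytosol. In the bone marrow the granule transcripts are made mostly before the cell enters the blood, whereas S100a8, S100a9, Mmp9 and Csf3r are also expressed by mature neutrophils. Several of the 10 genes have other sources in lung, since monocytes express S100a8, S100a9 and Csf3r, airway epithelium expresses Lcn2, and gland epithelium expresses Ltf. In whole lung, fewer cells of a type and less RNA per cell cannot be told apart.

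On GRCm38 (GENCODE M21), Camp, Ngp and Ltf lie within 1.195 Mb of chromosome 9, at chr9:109847379-109849617 on the minus strand, chr9:110419747-110423012 and chr9:111019271-111042767 on the plus strand. Mmp8 is farther off on the same chromosome, at chr9:7558456-7568485. S100a8 (chr3:90668978-90670035, plus strand) and S100a9 (chr3:90692632-90695721, minus strand) are neighbours within 26.7 kb. Lcn2 (chr2:32384633-32388252) and Mmp9 (chr2:164940780-164955850) share chromosome 2, Csf3r is at chr4:126024550-126044440 and Retnlg at chr16:48872621-48874496. No stretch of 150 bases in the transcripts of any of the 10 genes occurs unchanged in a transcript of another gene. Copies that differ by a few bases were not searched for.

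The specific granule genes are textbook targets of C/EBP transcription factors, so the 250 bases before each RefSeq start were searched for the C/EBP core TTGCNNAA on both strands (TTNNGCAA on the other strand). Mmp9 was not in the promoter table used here. Of the other 9 members, 6 held a match, and 9.56% of 32851 promoters of the same length did. The 30 bases around these matches are shown in the direction of each gene (GRCm38.p6, RefSeq), with the match in capitals, because they are a sequence feature that members with unlike responses have in common.
Mmp8 (chr9:7558399-7558428, plus strand): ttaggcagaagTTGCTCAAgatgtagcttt
Lcn2 (chr2:32387937-32387966, minus strand): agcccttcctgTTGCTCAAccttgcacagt
Ltf (chr9:111019206-111019235, plus strand): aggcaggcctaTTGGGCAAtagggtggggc
Ngp (chr9:110419659-110419688, plus strand): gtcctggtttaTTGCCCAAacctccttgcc
S100a9 (chr3:90695939-90695968, minus strand): ggtaggctgtcTTGCTTAAgatttgggcgg
Retnlg (chr16:48872358-48872387, plus strand): agctTTCTGCAAggcattccaggcacctcc
Mmp8 and Lcn2 hold the same 8 letters, 19 to 12 bases before the start in Mmp8 and 216 to 209 bases before it in Lcn2. The Lcn2 stretch also lies in an exon of a longer GENCODE transcript of the gene. Ltf and Ngp matches are the reverse complement of each other. Ngp has a further match 11 to 4 bases before its start, in an exon of the GENCODE model. The PU.1 or ETS core GAGGAA, searched on both strands, was found in 5 of the 9 promoters, those of Csf3r, Lcn2, Ltf, Mmp8 and S100a8, beside 23.3% of all promoters. An NF-kB motif, GGGA and TCC with any 3 bases between them, was found on either strand only in that of Csf3r, beside 3.86% of all. A match describes the letters and does not show binding.

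The libraries held 18112901 to 19910236 counts, and scaling factors between them (TMM) were 0.973 to 1.02. Rab44, the edited gene, had 251 counts in normal WT, 1 in normal KO, 810 in OVA WT and 0 in OVA KO lung, as labelled. With 1 library per group no difference below has a replicate check, no test between conditions was run, and each comparison is between libraries. Ranges in parentheses are exact 95% intervals that cover counting error only. CPM is the count relative to the library total after TMM scaling (counts per 1000000), log2FC is the log2 ratio of CPM, and a gene was compared if either library of the pair reached 10 counts. Levels of different genes are compared only as TPM, the length-scaled values deposited with the counts.

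The 10 genes together took 0.0180% of all counts in normal WT, 0.0238% in normal KO, 0.109% in OVA WT and 0.0921% in OVA KO lung. Both OVA-induced libraries were above both normal libraries for every member. In TPM, Lcn2, an iron-trapping antibacterial lipocalin, was the highest member in normal WT (152), normal KO (224) and OVA WT (1266). In OVA KO lung it was at 430.4, below S100a9 at 1260, S100a8 at 931 and Retnlg at 449, although the intervals of Retnlg and Lcn2 overlap. S100a9 ranked 1122 among all genes by TPM in normal WT and 56 in OVA KO lung. At the other end of the order, Camp and Ngp were at 0 TPM in normal WT, and Camp (10.3) and Mmp8 (7.23) had overlapping intervals as the lowest members in OVA WT.

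**Figure D1:**
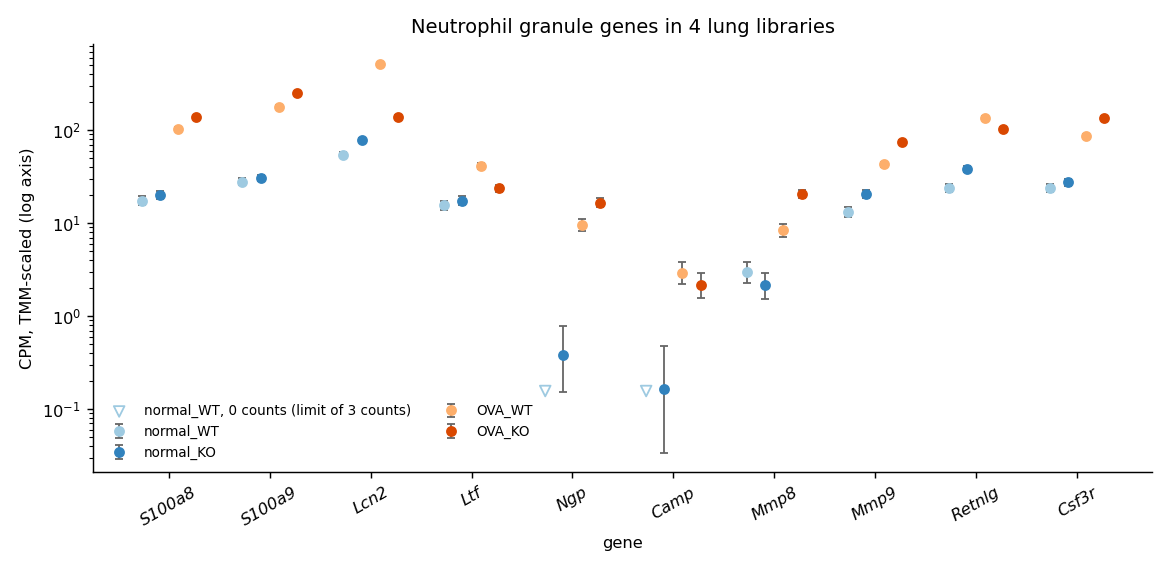
TMM-scaled CPM on a log axis for the 10 genes in the 4 libraries (1 library per group, so each point is 1 library). Bars are exact 95% Poisson intervals, and open triangles mark the limit of 3 counts (0.156 CPM) for the 0 counts of Ngp and Camp in normal_WT. Lcn2, Ltf, Camp and Retnlg are higher in OVA_WT than in OVA_KO, with overlapping intervals for Camp, and the other 6 genes are higher in OVA_KO.

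Calprotectin transcripts were several-fold higher in OVA lungs of both genotypes. S100a8, a calcium-binding alarmin, had 336 counts in normal WT, 367 in normal KO, 2012 in OVA WT and 2693 in OVA KO lung. Its partner S100a9 had 538, 558, 3461 and 4872 counts in the same order. The 2 genes thus kept the same order of libraries, with OVA KO lung the highest. The log2FC of OVA-induced over normal lung was 2.57 (2.40 to 2.74) in WT and 2.78 (2.62 to 2.94) in Rab44-KO for S100a8, and 2.67 (2.54 to 2.81) and 3.03 (2.90 to 3.16) for S100a9. The ratio of S100a9 to S100a8 counts within a library stayed between 1.52 and 1.81. Between genotypes in OVA lung, S100a8 was higher in Rab44-KO by 0.41 (0.33 to 0.50) and S100a9 by 0.48 (0.42 to 0.55) on the log2 scale. Both values pass 1, at 1.17 and 1.20, when the trend of log2FC with transcript length in this comparison is removed, and at 1.04 and 1.11 with housekeeping scaling. The difference in response was 0.21 (-0.02 to 0.44) for S100a8 and 0.36 (0.18 to 0.54) for S100a9. These became 0.86 and 1.01 with housekeeping scaling, 0.51 and 0.66 in TPM, and 0.84 and 0.95 with the length trend removed.

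Lcn2 was the only member over 2-fold lower in OVA KO than in OVA WT lung. It had 1046 counts in normal WT and 1443 in normal KO lung, against 9933 in OVA WT and 2710 in OVA KO lung. In CPM these were 54.5, 79.1, 513 and 139. The OVA WT library thus stood far above the other 3, and the genotype order was opposite in normal and OVA lung. Its log2FC with OVA was 3.23 (3.14 to 3.33) in WT and 0.81 (0.72 to 0.91) in Rab44-KO, a difference in response of -2.42 (-2.55 to -2.29). In OVA lung Lcn2 was 3.69-fold lower in Rab44-KO, a log2FC of -1.88 (-1.95 to -1.82). Over 8 other ways of scaling or counting, this value stayed between -1.89 and -1.26.

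Ltf, which encodes the iron-binding lactoferrin, showed the same order of libraries as Lcn2 with smaller differences. It had 298, 318, 795 and 462 counts in normal WT, normal KO, OVA WT and OVA KO lung. Its log2FC with OVA was 1.40 (1.21 to 1.60) in WT and 0.44 (0.23 to 0.65) in Rab44-KO, and OVA KO lung was below OVA WT by a log2FC of -0.79 (-0.96 to -0.63). That value was -0.17 with housekeeping scaling, -0.46 in TPM and -0.55 with the length trend removed. Retnlg, a resistin-like secreted protein of neutrophils, also had a smaller OVA response in Rab44-KO. Its counts were 459, 702, 2630 and 2015 in the same order, so that Rab44-KO was the higher genotype in normal lung and the lower in OVA lung. The responses were 2.51 (2.36 to 2.65) in WT and 1.43 (1.30 to 1.55) in Rab44-KO. Their difference of -1.08 was -0.43 with housekeeping scaling and -0.49 with the length trend removed, and that of Ltf, -0.96, was -0.31 with housekeeping scaling. The log2FC between genotypes in OVA lung, -0.39 (-0.48 to -0.31), turns positive at 0.33 with the length trend removed.

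Mmp8 and Mmp9 were higher in OVA KO than in OVA WT lung. Mmp8, the neutrophil collagenase of specific granules, had 57 counts in normal WT, 39 in normal KO, 163 in OVA WT and 400 in OVA KO lung. OVA KO lung was thus the highest of the 4, and the normal libraries were close. The OVA response was 1.50 (1.06 to 1.96) in WT and 3.26 (2.79 to 3.78) in Rab44-KO, and the responses differed by 1.76 (1.12 to 2.40). In OVA lung Mmp8 was 2.44-fold higher in Rab44-KO, a log2FC of 1.28 (1.02 to 1.56), and it stayed past 2-fold under all 8 other settings. Mmp9, the gelatinase of late granules, had 255, 374, 829 and 1470 counts. Its responses of 1.69 (1.48 to 1.90) and 1.88 (1.71 to 2.05) differed by 0.19 (-0.07 to 0.45), an interval that includes 0, although the difference was 0.84 with housekeeping scaling and 0.49 in TPM. Rab44-KO was the higher genotype for Mmp9 in normal lung (0.63, 0.39 to 0.86) as well as in OVA lung (0.82, 0.69 to 0.94). The value in OVA lung was 1.44 with housekeeping scaling and 1.14 in TPM.

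Ngp and Camp, both of the cathelicidin family and typical of marrow precursors, were almost absent from normal lung. Ngp had 0 counts in normal WT, 7 in normal KO, 187 in OVA WT and 323 in OVA KO lung. Camp had 0, 3, 57 and 42 counts. A count of 0 was set to a limit of 3 counts, or 0.156 CPM, in the normal WT library. Against that limit, and at the counts observed in OVA WT lung, Ngp was at least 61.8-fold and Camp at least 18.8-fold higher in OVA WT than in normal WT lung. In Rab44-KO the log2FC with OVA was 5.41 (4.37 to 6.76) for Ngp, and Camp was 13.1-fold higher (4.19 to 66.1) on 42 counts against 3. Between genotypes in OVA lung Ngp was higher in Rab44-KO by 0.78 (0.51 to 1.05), whereas the interval of Camp (-1.06 to 0.15) spans 0. The value of Ngp was 1.40 with housekeeping scaling, 1.10 in TPM and 1.32 with the length trend removed. The number of Camp counts per Ngp count was 0.305 in OVA WT and 0.130 in OVA KO lung.

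Csf3r, the receptor for granulocyte colony-stimulating factor, is the only member that encodes a surface receptor. It had 457, 500, 1666 and 2640 counts in normal WT, normal KO, OVA WT and OVA KO lung, and so was highest in the last. The OVA response was 1.85 (1.70 to 2.01) in WT and 2.30 (2.17 to 2.45) in Rab44-KO, a difference of 0.45 (0.25 to 0.65), which was 1.10 with housekeeping scaling and 0.75 in TPM. In OVA lung Rab44-KO was higher by 0.65 (0.57 to 0.74), which was 1.28 with housekeeping scaling and 0.98 in TPM.

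**Figure D2:**
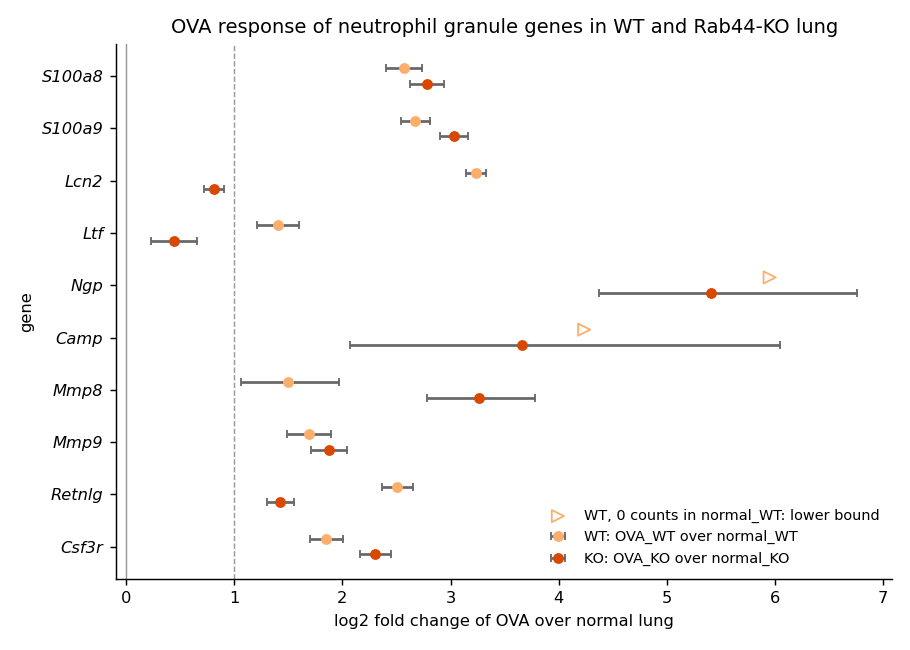
Log2 fold change of OVA-induced over normal lung for each gene in WT (light) and Rab44-KO (dark), with exact 95% counting intervals. Open triangles are lower bounds for Ngp and Camp, which had 0 counts in normal_WT, and the dashed line marks 2-fold. Lcn2 (3.23 against 0.81), Ltf (1.40 against 0.44) and Retnlg (2.51 against 1.43) have the smaller response in Rab44-KO, and Mmp8 (1.50 against 3.26), Csf3r (1.85 against 2.30) and S100a9 (2.67 against 3.03) the larger.

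Counted over the 10 genes, OVA WT lung was over 2-fold higher than normal WT lung for all 10, where 8.99% of 19023 genes compared were over 2-fold higher and 5.2% lower. The median log2FC of the members was 2.54 and that of all genes 0.00. In Rab44-KO 8 of 10 were over 2-fold higher, all but Lcn2 and Ltf, beside 6.44% of 19073 genes higher and 3.85% lower, and the median was again 2.54. The 2 medians round to the same value although the difference in response had an interval without 0 for Lcn2, Ltf, Retnlg, Mmp8, Csf3r and S100a9 (0.36, 0.18 to 0.54). Their likeness depends on the scaling. The medians in WT and Rab44-KO were 2.04 and 2.70 with housekeeping scaling, 2.36 and 2.66 in TPM, and 2.19 and 2.66 with the length trend removed. In normal lung, 8 of the 10 genes had enough counts and none was over 2-fold apart between genotypes, where 2.77% of 18718 genes were higher and 2.0% lower in Rab44-KO. The median there was 0.20, and Retnlg (0.69, 0.51 to 0.86), Mmp9 (0.63) and Lcn2 (0.54, 0.42 to 0.65) were the members farthest from 0. In OVA lung 1 gene, Mmp8, was over 2-fold higher and 1, Lcn2, over 2-fold lower in Rab44-KO, beside 8.4% of 19259 genes higher and 7.34% lower. Each count of 1 in 10 is close to the share over all genes. The median was 0.45, with 6 genes above 0 and 4 below, and that of all genes was -0.02.

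The scaling factor of a library cancels out when 2 genes are compared within it, but the trend with transcript length does not. The ratios given here were chosen after the gene values were seen. Relative to S100a9, Lcn2 had 1.94 counts per S100a9 count in normal WT, 2.59 in normal KO, 2.87 in OVA WT and 0.556 (0.531 to 0.583) in OVA KO lung. The Lcn2 ratio was thus several-fold lower in the last library than in the other 3. Ltf fell in number per S100a9 count from 0.554 in normal WT to 0.230 in OVA WT and from 0.570 in normal KO to 0.0948 in OVA KO lung. Csf3r per S100a9 was nearer between genotypes, at 0.849 and 0.896 in normal and 0.481 and 0.542 in OVA lung. With the length trend removed, however, the log2FC between OVA KO and OVA WT lung was 0.66 for Csf3r and 1.20 for the far shorter S100a9, so that Csf3r relative to S100a9 was lower in OVA KO. Mmp8 per Mmp9, 2 metalloproteinases of different granules, was 0.224, 0.104, 0.197 and 0.272 in the 4 libraries.

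**Figure D3:**
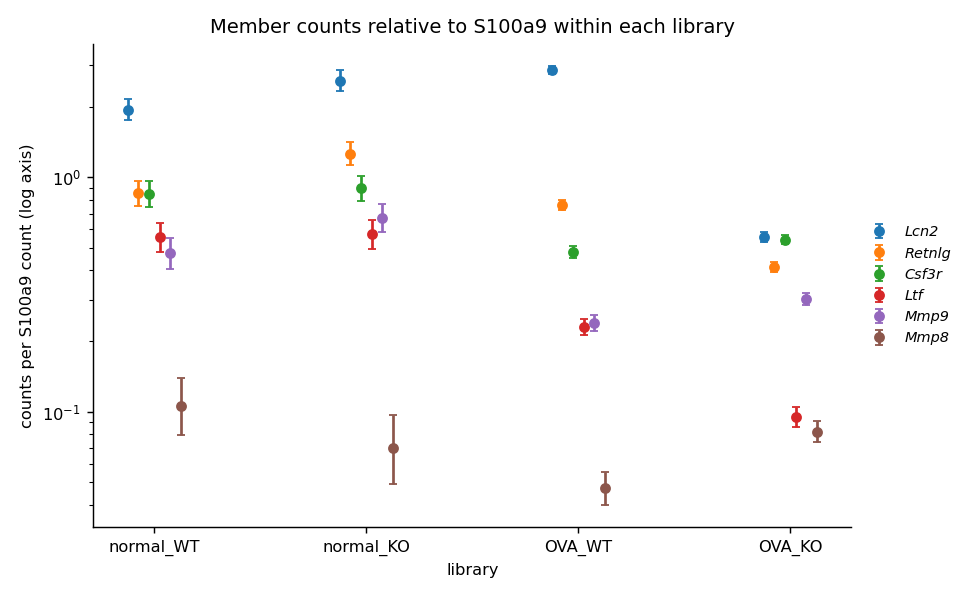
Counts of 6 members per S100a9 count within each library, on a log axis, with exact 95% intervals. The ratio compares each gene with itself across libraries and not levels between genes, since gene length is not removed. Lcn2 drops to 0.556 in OVA_KO from 1.94 to 2.87 in the other libraries, while Csf3r is 0.481 in OVA_WT and 0.542 in OVA_KO.

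The other neutrophil genes were taken from lists by granule and stage. Azurophil granule genes were scarce: myeloperoxidase (Mpo) had 0, 2, 19 and 11 counts in normal WT, normal KO, OVA WT and OVA KO lung, neutrophil elastase (Elane) 0, 0, 5 and 2, and Bpi 0 in every library. Precursor genes were scarce as well, with Fcnb at 0, 0, 4 and 5 counts and Ms4a3 at 0, 0, 0 and 1. An exception was Cebpe, which encodes the C/EBP factor needed for specific granules in neutrophils and also for eosinophils. Cebpe had 24, 22, 126 and 16 counts, and was lower in OVA KO than in OVA WT lung by a log2FC of -2.98 (-3.84 to -2.23). Of 2 precursor genes with enough counts in that comparison it was the only 1 past 2-fold, and of 2 azurophil genes Prtn3 was over 2-fold higher, on 25 counts against 10.

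Genes of mature neutrophils were mostly higher with OVA in both genotypes, and varied in direction between the OVA libraries. Of 18 genes on that list found in the table, 11 of the 14 with enough counts were over 2-fold higher with OVA in WT (median 2.25) and 12 of 17 in Rab44-KO (median 2.22). Between genotypes in OVA lung, 6 of 17 were over 2-fold higher in Rab44-KO and 0 lower, beside 8.4% and 7.34% of 19259 genes. The median was 0.36, and 12 genes lay above 0 and 5 below. Of the 6, Ly6g, Stfa1 (18 counts in OVA KO and 8 in OVA WT lung) and Stfa2 reached the count minimum only in OVA KO lung. They were thus compared only through the library in which they were higher, which favours calls in that direction. The interval of Stfa1 (-0.11 to 2.57) includes 0. Stfa2l1, a stefin, had 75 counts in OVA WT and 198 in OVA KO lung (1.39, 1.001 to 1.79), but stefin genes are near-identical copies, so the counts of Stfa2l1, Stfa1 and Stfa2, which are 3 of the 6, are uncertain. Asprv1, a retroviral-like protease, had 138 and 309 counts (1.15, 0.86 to 1.45), and Trem1, an activating receptor, 115 and 252 (1.12, 0.80 to 1.45). Stfa2 had 0 counts in both WT libraries and in normal KO lung, against 19 in OVA KO lung. Ly6g, the surface antigen used to sort neutrophils, was low in all 4 libraries, at 0, 3, 9 and 20 counts, and its interval between the OVA libraries (-0.06 to 2.46) includes 0. The genes below 0 were Clec4d, a lectin receptor, at 314 and 175 counts (-0.85, -1.13 to -0.58), Padi4 (-0.46), Il1b (-0.30), Fpr1 (-0.19) and Trem3 (-0.17), the last 2 with intervals that include 0. Housekeeping scaling shifts the median of all genes by 0.63 in this comparison, which is more than Padi4, Il1b, Fpr1 and Trem3 lie below 0. Clec4d and Il1b had the smaller OVA response in Rab44-KO, as Lcn2 did, at 3.63 in WT and 2.10 in Rab44-KO for Clec4d and 2.02 and 0.92 for Il1b.

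Other granule proteins lay between these patterns. Of 6 genes, 5 were over 2-fold higher with OVA in WT (median 1.95) and 3 in Rab44-KO (median 0.99), and between genotypes in OVA lung none was past 2-fold (median -0.31). Pglyrp1, a peptidoglycan-recognition protein of specific granules, had 591 counts in OVA WT and 341 in OVA KO lung (-0.80, -0.999 to -0.61). Cd177, a surface and granule glycoprotein, had 646 and 397 (-0.71, -0.90 to -0.53). Both are in the same direction as Lcn2 and Ltf under the main scaling. Housekeeping scaling shifts the median of all genes by 0.63 in this comparison. Mmp25, a membrane-bound metalloproteinase of neutrophils, had 177 and 143 counts, and its interval (-0.65 to 0.01) includes 0.

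Factors that attract neutrophils or drive their growth were mostly lower in OVA KO lung. Of 9 genes with enough counts, 5 were over 2-fold lower and 1 was higher, with a median of -1.11. Cxcl5, an epithelial chemokine for neutrophils, had 4 counts in normal WT, 12 in normal KO, 204 in OVA WT and 68 in OVA KO lung (-1.59, -2.01 to -1.19). Ppbp, the platelet chemokine, went the other way at 423, 180, 252 and 713 counts (1.49, 1.28 to 1.70). Cxcl2 was also above 0, at 37 counts in OVA WT and 52 in OVA KO lung (0.48, -0.15 to 1.13). Csf3, the ligand of Csf3r, was at 3, 3, 4 and 2 counts, and Il17a at 0, 0, 0 and 4. The IL-17 receptor gene Il17ra differed by -0.43 (-0.54 to -0.32). Among 8 receptors and inhibitors of the member proteins, 1 was past 2-fold: Timp1, an inhibitor of Mmp8 and Mmp9, had 374 counts in OVA WT and 168 in OVA KO lung (-1.16, -1.44 to -0.90). Ager, the receptor for S100 proteins that type 1 epithelium expresses highly, differed by -0.72 and Bsg by -0.64, and the list's median was -0.19.

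Lcn2 is also an epithelial gene, and its values were set beside those of epithelial genes that respond to inflammation. Of 6 such genes with enough counts, 4 were over 2-fold higher with OVA in WT (median 1.69) and 2 in Rab44-KO (median 0.55). The shares over all genes compared were 8.99% and 6.44%. In OVA KO against OVA WT lung 3 were over 2-fold lower (median -1.16), beside 7.34% of 19259 genes lower and 8.4% higher. Slc26a4, the anion exchanger pendrin, had 42, 53, 3426 and 260 counts in normal WT, normal KO, OVA WT and OVA KO lung. Saa3, an acute-phase apolipoprotein, had 19, 28, 1241 and 150, and Il1rn, the interleukin-1 receptor antagonist, 153, 134, 560 and 187. These 3 were named for their large genotype difference, so their likeness to Lcn2 follows from the choice. Nfkbiz, on the same list, had 530, 575, 537 and 548 counts. Pigr, which carries IgA across airway epithelium, had 845, 869, 5270 and 1549 counts, and Lcn2 had 1.24, 1.66, 1.88 and 1.75 (1.64 to 1.86) counts per Pigr count in the 4 libraries. The Lcn2 to Pigr ratio was thus close in the 2 OVA-induced libraries, whereas Lcn2 per Slc26a4 was 2.90 in OVA WT and 10.4 in OVA KO lung. Both ratios were chosen after the gene values were seen. Pigr, like Lcn2, was lower in OVA KO than in OVA WT lung, so its close ratio can follow from the choice. Of 8 airway secretory genes 1 was over 2-fold higher and 3 lower in OVA KO lung (median -0.55), with Muc5ac, a goblet cell mucin, at 649 and 41 counts and Bpifa1, an upper airway defence protein, at 242 and 1892. The part of epithelial RNA in the Lcn2 values was not tested.

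Markers of other cells were set beside the members for OVA KO over OVA WT lung, where 7.34% of 19259 genes were over 2-fold lower and 8.4% higher. All 5 eosinophil markers with enough counts were over 2-fold lower (median -1.95), and their summed CPM was 108.6 in OVA WT against 27.9 to 30.7 in the other 3 libraries. Ccr3 had 490 and 94 counts, Alox15 942 and 190, and Prg2 185 and 48, while Epx was at 1 and 0. Of 6 monocyte markers 1 was past 2-fold (median -0.53, 2 above 0 and 4 below), which was Ly6c2 at 799 and 338 counts. Ccr2 differed by -0.78 and Cx3cr1 by -0.63, while F13a1 was at 0.01 and Vcan at 0.06, and the summed CPM of the list was 225.4 to 393.1. Of 5 alveolar macrophage markers Marco was over 2-fold lower at 912 and 76 counts, Fabp1 over 2-fold higher at 31 and 116, and Pparg differed by -0.71 (median -0.70, summed CPM 158 to 288). Of 5 general leukocyte genes 1 was over 2-fold lower and 0 higher, with a median of -0.96 (summed CPM 543 to 1364), with Coro1a at -1.17, Itgb2 and Laptm5 both at -0.96, and Ptprc, which encodes CD45, at -0.02. Erythroid genes, whose globin copies share reads, had a median of -0.26 (Hba-a2 -1.08, Alas2 0.49, Hbb-bt -0.35), and platelet genes 0.74 (Itga2b 0.87, Pf4 0.23). The part of each of these cell types in the members' values was not tested.

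**Figure D4:**
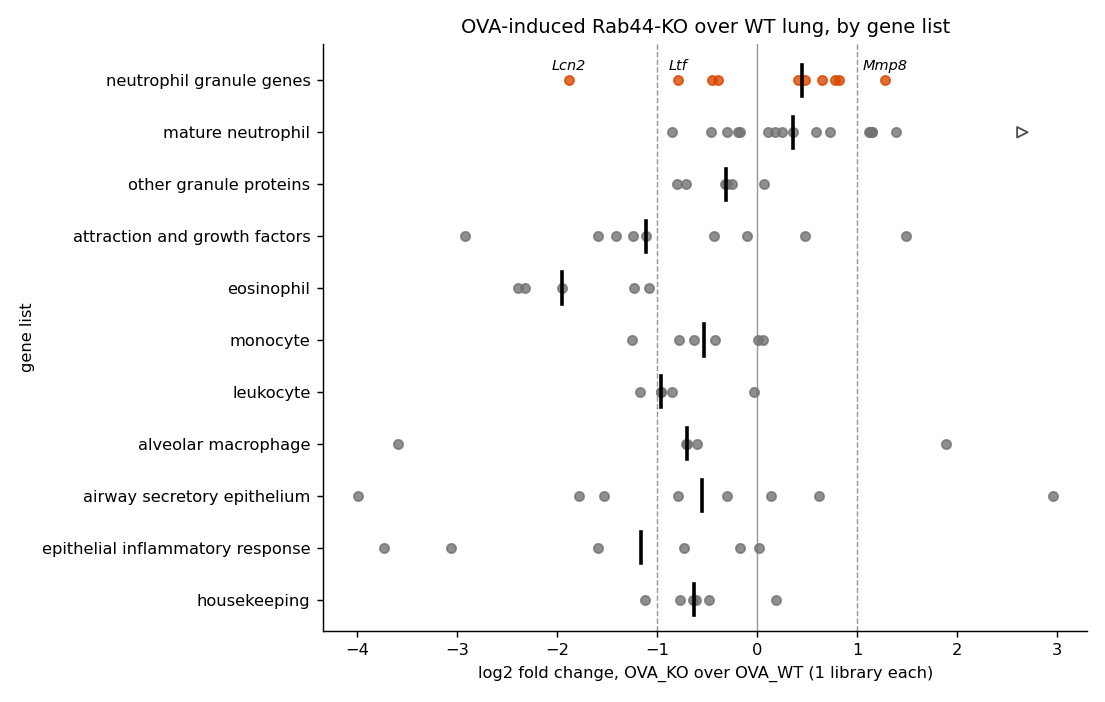
Log2 fold change of OVA KO over OVA WT lung, 1 library each, for the genes of 11 lists that reached 10 counts in either library (points). Black ticks are list medians, dashed lines mark 2-fold, and the open triangle is the lower bound of Stfa2, which had 0 counts in OVA_WT. The 10 members (top row, median 0.45) spread from Lcn2 at -1.88 to Mmp8 at 1.28, and all eosinophil genes lie below -1.

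Long and short transcripts did not compare alike between the OVA-induced libraries. For genes with at least 100 counts, the median log2FC of Rab44-KO over WT went from -0.46 in the shortest of 4 length classes to 0.33 in the longest. S100a8, S100a9, Camp, Retnlg and Lcn2 were among the shortest 7.44% of genes, and Csf3r was the longest member at percentile 59.9. Values of housekeeping genes differed as well, with a median of -0.63 (Ppia -1.12, Rplp0 -0.64, Actb -0.61). Scaled to those genes, the median of all genes shifts by 0.63 and 6 members in place of 1 are over 2-fold higher in OVA KO lung, as are 5201 in place of 1617 of the 19259 genes. Camp and Retnlg are the members whose sign turns, under this scaling and with the length trend removed. Lcn2 and Mmp8 keep both their direction and their place past 2-fold.

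The deposited gene ontology terms rest on the same kind of knowledge by which the genes were chosen, so they describe the genes and check nothing. They place 9 of the 10 gene products in the extracellular region, a term that 5.21% of all listed genes carry. The exception was Csf3r. Innate immune response was listed for 5 (Camp, Lcn2, Ltf, S100a8 and S100a9), beside 1.45% of genes, and neutrophil chemotaxis for Csf3r, S100a8 and S100a9, beside 0.141% of genes.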

How the data were processed

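Trimmed reads were mapped by the authors to GRCm38 (HISAT2) and summed per gene (featureCounts). The deposited files hold these raw counts, which are whole numbers, and TPM. Tool versions and the handling of strand are not given in the sources used here. Gene starts in the deposited table equal GENCODE M21 for 0 of 10 members, so positions are from GENCODE M21. Columns of the authors' annotation other than gene ontology terms were not used.

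Counts were scaled by TMM in edgeR 4.0.16 (R 4.3.3) over the 4 libraries, with a prior count of 0.125 for log2FC. The rest used Python 3.11.15, numpy 2.4.6, pandas 2.3.3, scipy 1.17.1 and matplotlib 3.10.9. Intervals are Poisson for CPM and Clopper-Pearson for ratios. Those of response differences use a log-normal approximation. No p-value was computed. An additive edgeR fit over the 4 libraries would have left residual degrees of freedom only by taking the genotype difference as equal in both conditions, and was not run. The log2 ratio and its counting interval were tested on simulated Poisson counts, without TMM scaling and without variation between animals. The other steps were not tested in this way.

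The members and lists were chosen with earlier results of these data known. Named genes are the 10 members, Rab44, the 3 genes per list with at least 100 counts and the largest log2FC between OVA-induced genotypes, genes at 0 in both libraries of a comparison, and the 10 nearest profiles. Genes named outside this rule, such as Mpo, Prtn3, Ly6g, Clec4d, Il1b, Csf3 and Ptprc, were chosen after their values were seen. Hprt and BC100530 were not analysed here. Alternatives were DESeq2 1.42.0 size factors, total counts, TMM on the 2 compared libraries, housekeeping scaling, TPM with a pseudocount of 0.1, a prior count of 2, thinning, removal of a running median over 501 genes along length, minimums of 1 and 100 counts, and a 4-fold threshold.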

Additional observations from a re-analysis of the deposited data

Results flagged for a closer look

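Lcn2 was lower in Rab44-KO than in WT in OVA lung (log2FC -1.88, counts 2710 and 9933) but higher in normal lung (0.54, counts 1443 and 1046). It is listed because the genotype difference has opposite signs in the 2 conditions, each with 1 library per group, and the difference was not tested. Retnlg is listed for the same reason, with -0.39 in OVA-induced and 0.69 in normal lung. The difference was not tested, and the OVA-induced value changes sign under housekeeping scaling and with the length trend removed.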

How the results depend on the processing

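No paired analysis was possible because each group is 1 library. Single genes were followed under the alternatives only for the members, leaving out values of Ngp and Camp that involve a count of 0. None of the followed values past 2-fold changed sign under any alternative. For OVA KO over OVA WT lung, however, Camp (0.28) and Retnlg (0.33) turned positive with the length trend removed, and both also did with housekeeping scaling. Of 352 values of single members 279 moved by less than their counting interval and 73 by more. Of the members' medians and counts, those that moved were, apart from a 4-fold count, in OVA KO over OVA WT lung: the median of 0.45 became 1.07 with housekeeping scaling, 0.77 with TPM and 0.78 with the length trend removed, and the members over 2-fold higher became 6, 3 and 4, beside 5201, 2602 and 1960 of 19259 genes. At a 4-fold threshold 0 members were higher and 0 lower there, and 6 were higher with OVA in WT. Ltf with OVA in WT was 0.91 with housekeeping scaling, and Lcn2 with OVA in Rab44-KO was 1.11 with the length trend removed. The median of all genes moved by -0.50, 0.15 and 0.63 with housekeeping scaling and by -0.17, 0.12 and 0.32 with TPM for OVA in WT, OVA in Rab44-KO and OVA-induced genotypes. Causes were not tested.

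Counts over all genes past 2-fold moved mostly by construction, with the threshold and the count minimum. For OVA in WT (1710 higher, 989 lower) they were 647 and 217 at 4-fold, 4219 and 3325 at a minimum of 1 count, 786 and 223 at 100 counts, and 985 and 2963 with housekeeping scaling. For OVA in Rab44-KO (1229 and 734) they were 371 and 129 at 4-fold, 3937 and 3136 at 1 count, 324 and 182 at 100 counts, and 481 lower with TPM. For normal genotypes (519 and 374) they were 106 and 74, 3068 and 2521, and 44 and 11 in that order. For OVA-induced genotypes (1617 and 1413) they were 350 and 413, 4404 and 3552, and 499 and 595, and 5201 and 622 with housekeeping scaling and 2602 and 777 with TPM. Depth limits Ngp and Camp in normal lung, where 0 to 7 counts were found.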

Other observations

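Among genes other than the members, 13890 with at least 100 counts in the highest library were compared with the median profile of the 10 members, which relative to normal WT was 0.37 in normal KO, 2.54 in OVA WT and 2.65 in OVA KO lung (log2 scale). This profile takes all 10 genes, with a prior count for the 0 counts of Ngp and Camp, so its 0.37 differs from the 0.20 over the 8 genes with enough counts. The distance is Euclidean over these 3 values, so it rests on 4 libraries. The nearest was Nfil3, a leucine zipper repressor, with 56, 72, 265 and 383 counts in normal WT, normal KO, OVA WT and OVA KO lung (distance 0.33). Clec4e, a lectin receptor of myeloid cells, followed with 22, 34, 145 and 164 counts (0.43). Serpina3h (0.54), Pla2g7 (0.55), Adamts4 (0.57), 1700071M16Rik (0.62), Ctla4 (0.67), Oas3 (0.67) and Ighv9-3 (0.69) were also among the 10. Cxcr2, the neutrophil receptor for CXC chemokines, was the only gene of the neutrophil lists among them, with 74, 117, 496 and 642 counts (0.61).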
